A study of Mus musculus with 13 samples.

Results

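Axin2, Nkd1, Nkd2, Sp5, Lef1, Tcf7, Notum, Rnf43 and Znrf3 are genes that canonical Wnt signalling commonly switches on, and most of them encode proteins that feed back on the same pathway. They were taken by gene symbol from the deposited table of raw read counts, in which all 9 were found among 53653 genes. Counts of 8 of the 9 were high enough to test, among 22265 genes tested. Notum was not.

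In canonical Wnt signalling a secreted Wnt ligand binds a Frizzled receptor with LRP5 or LRP6, which stops the destruction complex of Axin, APC and the kinases GSK3 and CK1 from marking beta-catenin for degradation. Beta-catenin then enters the nucleus, binds the TCF and LEF factors and switches on targets that include brakes on the pathway itself. In medulloblastoma, a tumour of the cerebellum, an active Wnt pathway and an active Sonic Hedgehog pathway are known from separate tumour groups. The Sonic Hedgehog tumours arise from granule cell precursors.

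The libraries are RNA-seq of GFP+ cells sorted from tumours of a mouse model in which every group overexpressed SmoM2, an activated Smoothened that turns on the Sonic Hedgehog pathway. The control primary group held 5 libraries (replicates 3 to 7) from cerebellar tumours with SmoM2 alone. The KO primary group held 4 libraries (replicates 3, 4, 6 and 7) from cerebellar tumours with SmoM2 and a knockout of Kmt2d (SmoM2-Kmt2dCf/Cf), the gene of a histone H3 lysine 4 methyltransferase. The KO metastasis group held 4 libraries (replicates 3, 4, 6 and 7) from spinal cord metastases of the same genotype. The controls were taken at 6 to 16 weeks of age and the knockouts at 5 to 8 weeks. No source used here gives the Cre driver, the promoter of SmoM2 or the source of GFP. Whether libraries of a group come from different mice is not labelled, so the p-values reflect the spread between libraries, which may in part be technical.

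Total counts ranged from 23.5 to 41.4 M per library. Kmt2d counts over the whole gene were 125 ± 36.7 CPM (counts scaled to library size by TMM, SD, n = 5) in control primary, 116 ± 35.7 (n = 4) in KO primary and 115 ± 11.2 (n = 4) in KO metastasis. The labels do not give the deleted part, so these counts do not check the genotype. The summed level of 10 markers of granule cell precursors and Sonic Hedgehog tumours was 2470 to 3454 CPM in control primary, 3161 to 3978 in KO primary and 3061 to 4405 in KO metastasis, with none of the 10 at 0 throughout a group. Within that sum Atoh1, of precursors, had 309 to 425, 590 to 787 and 371 to 861 CPM in the same order, and Neurod1, of differentiating neurons, had 407 to 886, 132 to 219 and 101 to 222 CPM. Xist, which marks female cells, stood at 324 to 510 CPM in 3 controls (replicates 5, 6 and 7) and at 1.02 CPM or less in the other 10 libraries, so sex and age cannot be told apart from genotype in the full set. Olfactory and vomeronasal receptor genes, which these cells are not known to use, drew 349 to 1752 CPM in control primary 3, KO primary 7 and KO metastasis 6 and 7, and 6.08 to 83.5 CPM in the other 9. Those 4 are called the high-receptor libraries here.

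Nkd1 and Sp5 were the members that passed the test, in opposite directions. The bases upstream of their RefSeq start sites are shown (RefSeq, GRCm38.p6, plus strand for both, 250 bases that end just before the start). Capitals mark CTTTGAT, core letters of the sites that TCF and LEF factors bind. The Sp5 window is chr2:70474673-70474922, just before the annotated gene at chr2:70474923-70477729. The Nkd1 window is chr8:88527383-88527632, which lies inside the GENCODE gene at chr8:88521354-88594884, so GENCODE starts Nkd1 further upstream than this RefSeq start. Bases before that GENCODE start were not searched, so the windows of Nkd1 and Sp5 are not like for like.
Sp5: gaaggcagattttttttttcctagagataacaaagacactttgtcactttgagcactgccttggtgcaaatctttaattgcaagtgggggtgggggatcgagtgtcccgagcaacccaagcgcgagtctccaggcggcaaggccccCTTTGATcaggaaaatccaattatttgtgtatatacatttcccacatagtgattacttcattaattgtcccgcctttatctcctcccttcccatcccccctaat
Nkd1: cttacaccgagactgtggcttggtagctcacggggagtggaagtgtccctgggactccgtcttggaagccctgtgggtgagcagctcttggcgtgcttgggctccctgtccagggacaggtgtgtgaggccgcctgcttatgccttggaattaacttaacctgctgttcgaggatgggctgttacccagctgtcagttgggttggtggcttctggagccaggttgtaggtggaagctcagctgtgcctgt
The Sp5 window held CTTTGAT once on the gene's own strand, from 104 to 98 bases before the start. The Nkd1 window held neither CTTTGAT nor CTTTGAA, a variant core, on either strand, and no GGGCGG, the GC box that Sp-family factors bind. RefSeq windows of 300 bases (250 before and 50 after the start) were matched for 7 members. Among them only that of Sp5 held a TCF and LEF core, while the windows of Axin2, Tcf7 and 3 of the 4 Lef1 starts held GGGCGG. The Axin2 window held it from 58 to 53 and from 20 to 15 bases before the start. Of all 32851 RefSeq windows searched on both strands, 3.73% held CTTTGAT, 5.14% held CTTTGAA and 35.7% held GGGCGG. These matches describe letters in short windows, and factor binding was not measured in these libraries.

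Per kilobase of exon, Nkd1 was by far the most abundant member, with a mean of 113 CPM per kilobase over the 13 libraries and a range of 55.6 to 169 that no other member reached. Rnf43 (5.26) and Znrf3 (3.01 CPM per kilobase) followed. Sp5 and Axin2 shared a mean of 1.75 CPM per kilobase, but Axin2 stayed within 1.33 to 2.49 while Sp5 ran from 0.0171 to 11.2. Nkd2 (0.663) and Tcf7 (0.461) were lower, and Lef1 (0.0848) and Notum (0.0590) were near the limit of detection. Neighbours in this order overlapped in their library ranges, except Nkd1 with Rnf43 and Axin2 with Nkd2. Of the 9 genes, 5 (Axin2, Notum, Rnf43, Tcf7 and Znrf3) lie on chromosome 11 (GRCm38).

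**Figure D1:**
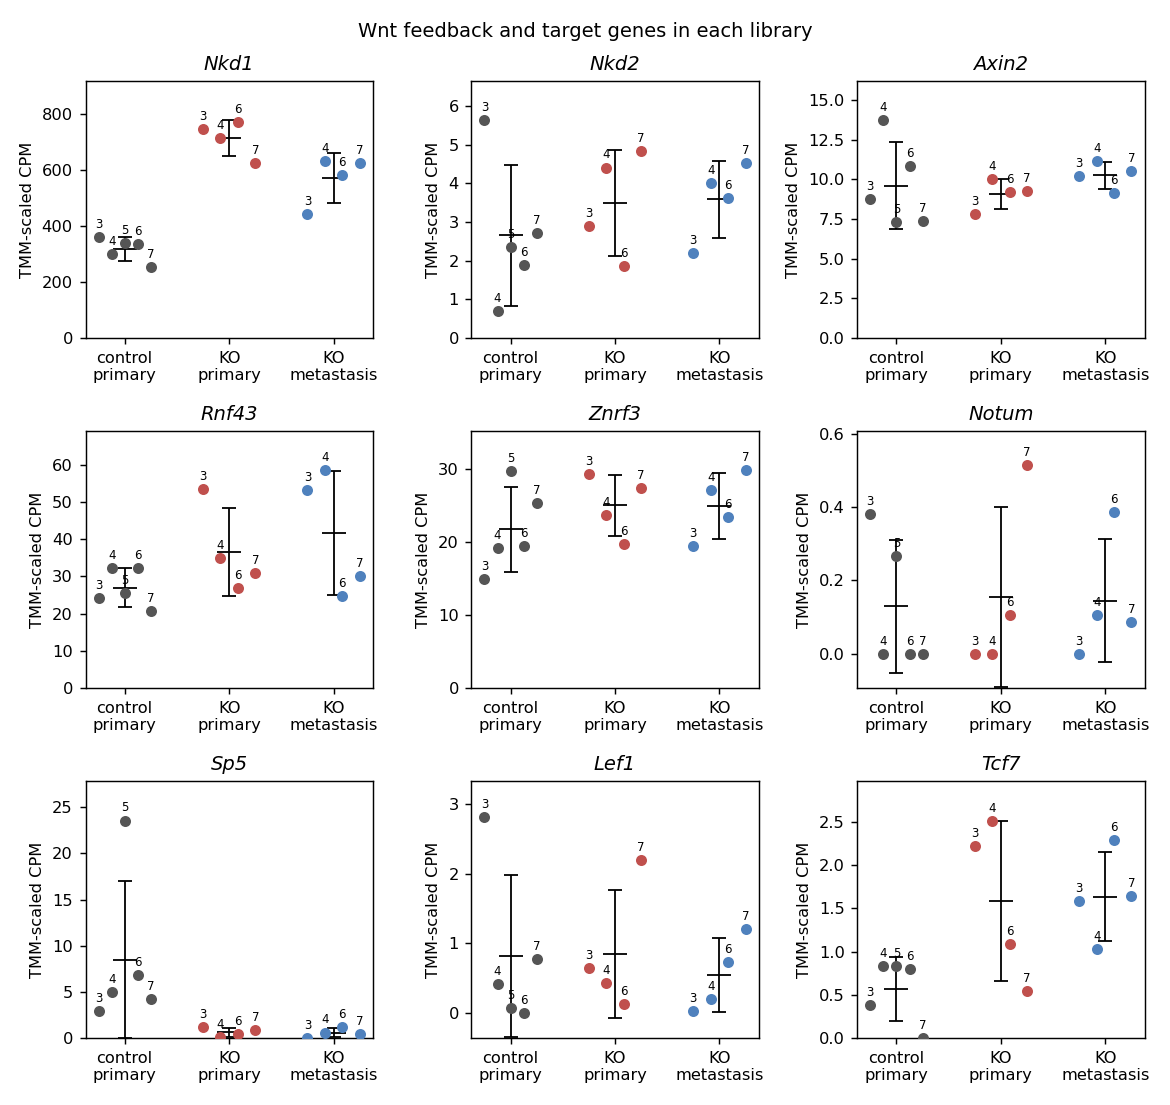
TMM-scaled CPM (vertical axes, linear, a separate scale for each gene) of the 9 members in each of the 13 libraries, with group mean and SD as black bars and replicate numbers beside the points. Nkd1 lies above and Sp5 below the control libraries in all 8 knockout libraries, while Axin2 and Znrf3 overlap across the 3 groups.

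Comparing KO primary with control primary tumours asks which members differed with loss of Kmt2d in the cerebellar tumour. Nkd1 rose 2.25-fold and Sp5 fell 12.3-fold, and the other 6 tested members were not called. Called means an edgeR quasi-likelihood p below 0.05 after Benjamini-Hochberg adjustment over all genes tested. The share of all genes called was 2.93% and the share whose groups did not overlap was 7.42%, against 2 of the 8 members by either count, Nkd1 and Sp5. Members were chosen with earlier results of these data known, so such counts are descriptions only, also in the comparisons below. The median log2 change of the 8 was 0.30 (6 above and 2 below 0), beside -0.05 over all genes.

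The 2 Naked cuticle genes encode inhibitors that bind Dishevelled and are induced by Wnt signalling. Nkd1 had 361, 299, 339, 335 and 253 CPM in control primary 3 to 7. In KO primary 3, 4, 6 and 7 it had 745, 714, 771 and 625 CPM. In KO metastasis 3, 4, 6 and 7 it had 441, 631, 582 and 626 CPM. Every knockout library was above every control library, with KO metastasis 3 the lowest of the 8. Group means were 318 ± 42.3 (SD, n = 5), 714 ± 63.4 (n = 4) and 570.2 ± 88.6 CPM (n = 4).

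In edgeR the log2 change of Nkd1 was 1.17 (SE 0.14, 95% interval 0.87 to 1.46, adjusted p = 5.71e-04) for KO primary against control primary. It was 0.84 (SE 0.14, interval 0.55 to 1.14, 1.80-fold, adjusted p = 0.00413) for KO metastasis against control primary. With any 1 of the 13 libraries left out, Nkd1 kept its edgeR call in both comparisons, with adjusted p at most 0.00427 and 0.0227. Without the 3 controls with Xist counts, 2 control libraries remained. The log2 changes were then 1.19 and 0.88, with edgeR adjusted p of 0.0508 and 0.170, both short of the threshold. In bulk sorted cells, more cells of a type with high Nkd1 and more RNA per cell cannot be told apart. Summed markers of oligodendrocyte precursors and committed oligodendrocytes, none of whose 10 genes was at 0 throughout a group, were 371 to 753 CPM in control primary, 353 to 666 in KO primary and 299 to 454 in KO metastasis. Mature oligodendrocyte markers (8 genes) summed to 143 to 401, 67.6 to 98.8 and 170 to 1938 CPM in the same order, with Opalin at 0 in all KO primary libraries. Genes of the precursor and committed list moved apart. From control primary to KO primary the medians of Olig1 and Olig2 rose from 75.8 to 170 and from 34.7 to 156 CPM. Those of Gpr17, Sox10 and Cspg4 fell from 30.8 to 4.20, from 26.1 to 4.51 and from 16.2 to 7.27 CPM. Neu4, Bmp4 and Enpp6 also fell, and Pdgfra (162 to 151) and Bcas1 (94.8 to 102) changed less. The part of these cell types in the level of Nkd1 was not tested. Gm45496, an unverified transcript, overlaps Nkd1 on the same strand, so their reads may be shared.

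Nkd2 was far less abundant per kilobase than its paralog. It had 5.63, 0.711, 2.36, 1.90 and 2.72 CPM in control primary 3 to 7. KO primary 3, 4, 6 and 7 had 2.89, 4.41, 1.85 and 4.82 CPM, and the metastases with the same numbers had 2.19, 4.01, 3.62 and 4.52 CPM. The groups overlapped, with the highest value in a control. The log2 change was 0.39 (95% interval -0.64 to 1.43, edgeR adjusted p = 0.894) in KO primary and 0.43 (-0.60 to 1.46, edgeR adjusted p = 0.848) in KO metastasis against control primary. These intervals include both no change and the change measured for Nkd1. The pseudogene Gm8062 overlaps Nkd2 on the opposite strand.

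Axin2 encodes a scaffold of the destruction complex and is a widely used readout of canonical Wnt activity. Control primary 3 to 7 had 8.78, 13.7, 7.34, 10.8 and 7.35 CPM. KO primary 3, 4, 6 and 7 had 7.81, 10.04, 9.18 and 9.24 CPM, and KO metastasis 3, 4, 6 and 7 had 10.2, 11.1, 9.13 and 10.5 CPM. All 3 groups overlapped, and control primary 4 was the highest of the 13 libraries. The log2 change was -0.08 (95% interval -0.53 to 0.36, edgeR adjusted p = 0.966) for KO primary and 0.09 (-0.35 to 0.53, edgeR adjusted p = 0.959) for KO metastasis against control primary. At 193 to 463 counts per library, the first interval corresponds to 0.694-fold to 1.28-fold. The change of Nkd1 lies outside it. Gm11670, an antisense gene, overlaps Axin2, and with no strand setting given their reads cannot be told apart.

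Rnf43 and Znrf3 encode membrane ubiquitin ligases that remove Frizzled from the cell surface, and R-spondins bind them to relieve that brake. Rnf43 had 24.3, 32.3, 25.5, 32.4 and 20.6 CPM in control primary 3 to 7. It had 53.6, 34.8, 27.0 and 31.0 CPM in KO primary and 53.3, 58.5, 24.7 and 30.2 CPM in KO metastasis 3, 4, 6 and 7. KO primary 3 and KO metastasis 3 and 4 stood above 50 CPM, and the other 10 libraries overlapped between 20.6 and 34.8 CPM. The log2 change was 0.44 (95% interval -0.14 to 1.02, edgeR adjusted p = 0.574) in KO primary and 0.62 (0.04 to 1.21, edgeR adjusted p = 0.305) in KO metastasis against control primary. Without the 4 high-receptor libraries, the metastasis value was 1.02 with an edgeR adjusted p of 0.0480. That fit holds 2 metastases, replicates 3 and 4, which are the high ones. Gm25968, a small nuclear RNA gene on the opposite strand, and 1110028F11Rik on the same strand overlap Rnf43.

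Znrf3 had 14.9, 19.2, 29.7, 19.5 and 25.4 CPM in control primary 3 to 7. KO primary 3, 4, 6 and 7 had 29.3, 23.7, 19.8 and 27.4 CPM, and KO metastasis had 19.5, 27.2, 23.4 and 29.8 CPM. The groups covered nearly the same range. Its log2 change was 0.20 in both knockout groups against control primary (95% intervals -0.24 to 0.65 and -0.24 to 0.64, edgeR adjusted p = 0.842 and 0.821). The upper edge of the KO primary interval corresponds to 1.57-fold. KO metastasis 3, high in Rnf43, had the lowest Znrf3 of the 4 metastases, while KO primary 3 was the highest of its group for both.

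Notum encodes a secreted enzyme that removes the lipid from Wnt ligands. It drew 10, 0, 7, 0 and 0 counts in control primary 3 to 7, 0, 0, 4 and 19 in KO primary and 0, 4, 11 and 3 in KO metastasis 3, 4, 6 and 7. The 58 counts over all 13 libraries left it untested, and 6 libraries had none. A count of 0 allows up to 3 counts in a library, counting error only. Notumos and Myadml2os overlap it on the opposite strand.

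Sp5 encodes a zinc-finger repressor of the Sp family that is induced by Wnt signalling and damps other Wnt targets. Its control levels were 2.93, 5.01, 23.6, 6.86 and 4.28 CPM in replicates 3 to 7. They were 1.25, 0.136, 0.476 and 0.894 CPM in KO primary and 0.0359, 0.637, 1.23 and 0.518 CPM in KO metastasis 3, 4, 6 and 7. All 8 knockout libraries lay below all 5 controls, and control primary 5 stood far above the next control, replicate 6. The counts behind these values were 77 to 620 in controls, 5 to 48 in KO primary and 1 to 35 in KO metastasis. Group means were 8.53 ± 8.53 (SD, n = 5), 0.689 ± 0.486 (n = 4) and 0.605 ± 0.491 CPM (n = 4).

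Sp5 changed by -3.62 on the log2 scale in KO primary (SE 0.88, 95% interval -5.51 to -1.74, edgeR adjusted p = 0.0415). In KO metastasis against control primary the value was -3.81 (SE 0.89, interval -5.72 to -1.90, 14.002-fold lower, edgeR adjusted p = 0.0331). The direction held in every fit, but the call did not. It was lost in both comparisons with the replicate number as a block (-2.70 and -3.06, edgeR adjusted p = 0.154 and 0.0950). In KO primary it was also lost in 10 of 13 fits that left 1 library out, with edgeR adjusted p from 0.0530 to 0.160. Those were the fits without control primary 4, 5, 6 or 7, any 1 KO primary library, or KO metastasis 4 or 7. For KO metastasis it was lost in 7 of 13, with edgeR adjusted p from 0.0529 to 0.103, without control primary 4, 5 or 6, KO primary 6, or KO metastasis 3, 4 or 7. Without control primary 5 the log2 changes were -2.81 and -2.97 (edgeR adjusted p = 0.0969 and 0.0817). Without the 3 controls with Xist counts they were -2.50 and -2.67 (edgeR adjusted p = 0.566 and 0.513). The 2 controls left in that fit, replicates 3 and 4, had 2.93 and 5.01 CPM, above the highest knockout library at 1.25 CPM. Neurod1 and Sp5 were both lower in all 8 knockout libraries than in all 5 controls. The part of Neurod1-expressing cells in the level of Sp5 was not tested. No annotated gene overlaps Sp5.

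**Figure D2:**
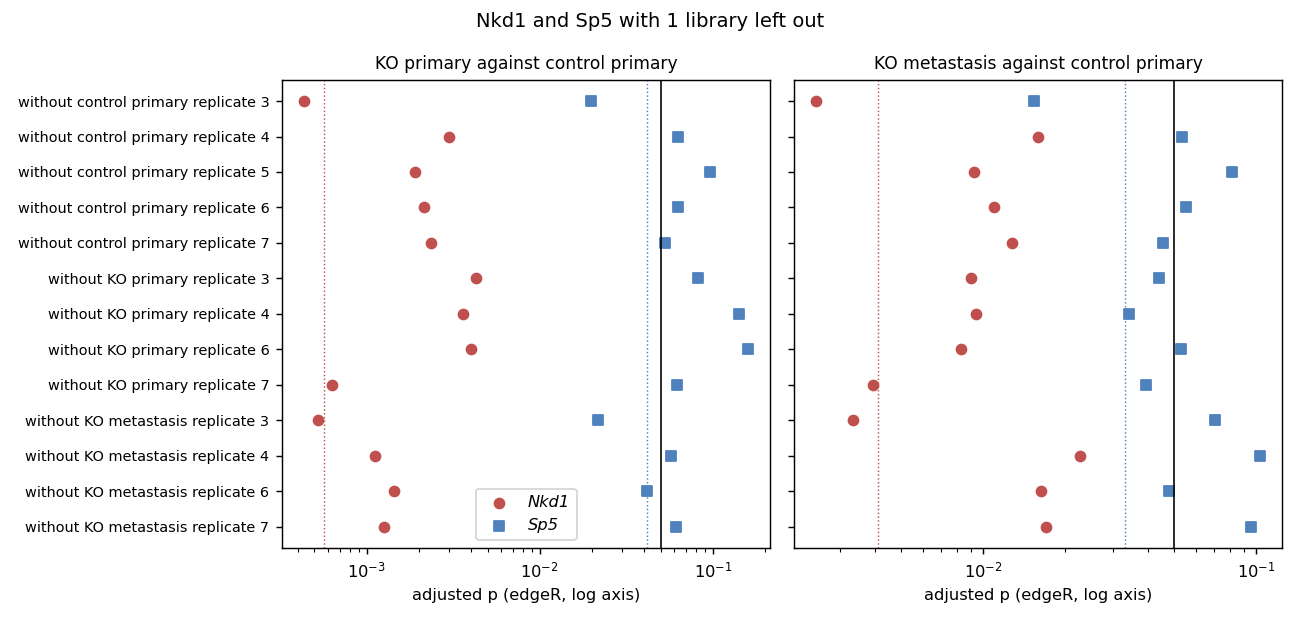
Benjamini-Hochberg adjusted p of edgeR (horizontal axis, log scale) for Nkd1 (circles) and Sp5 (squares) in fits that left out 1 library each, with the value from all 13 libraries as dotted lines and 0.05 as the black line. Nkd1 stays left of 0.05 in all 13 fits of both comparisons, and Sp5 lies right of it in 10 and 7 of them.

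Lef1 and Tcf7 encode the DNA-binding partners of beta-catenin and are themselves Wnt targets in many tissues. Tcf7 had 0.380, 0.829, 0.836, 0.805 and 0 CPM in control primary 3 to 7. It had 2.21, 2.50, 1.08 and 0.542 CPM in KO primary and 1.58, 1.03, 2.28 and 1.64 CPM in KO metastasis 3, 4, 6 and 7. All 4 metastases lay above all controls, while KO primary 7 lay within the control range. The log2 change was 1.47 (95% interval -0.31 to 3.25, edgeR adjusted p = 0.503) in KO primary and 1.51 (-0.27 to 3.30, edgeR adjusted p = 0.469) in KO metastasis. With 0 to 92 counts per library, these intervals correspond to 0.809-fold to 9.52-fold and 0.832-fold to 9.82-fold. The antisense gene A630014C17Rik and the lincRNA Gm26551 overlap Tcf7.

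Lef1 had 2.81, 0.415, 0.0760, 0 and 0.780 CPM in control primary 3 to 7. KO primary 3, 4, 6 and 7 had 0.651, 0.435, 0.132 and 2.19 CPM, and KO metastasis had 0.0359, 0.212, 0.737 and 1.21 CPM. The groups overlapped, with control primary 3 and KO primary 7 the highest of the 13 libraries. The log2 change was 0.06 (95% interval -2.68 to 2.80) in KO primary and -0.57 (-3.35 to 2.21) in KO metastasis against control primary, with edgeR adjusted p of 0.997 and 0.961. The KO primary value took either sign among the other fits. Gm43352 overlaps Lef1 on the opposite strand and Gm42449 on the same strand.

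The highest level of Lef1, of Notum, of Nkd2 and of Znrf3 each fell in a high-receptor library. Those of Axin2, Nkd1, Sp5, Tcf7 and Rnf43 fell in other libraries. Znrf3 had its highest level, 29.8 CPM, in KO metastasis 7 and its lowest, 14.9 CPM, in control primary 3, both high-receptor libraries. High-receptor libraries are 4 of the 13. In those 4 libraries Lef1 had 0.737 to 2.81 CPM, against 0 to 0.780 in the other 9. Nkd2 had 3.62 to 5.63 against 0.711 to 4.41 CPM, and Notum had 0.0863 to 0.515 against 0 to 0.266 CPM. The 10 endothelial markers, a cell type in which Lef1 is known, summed to 10.01 to 28.3 CPM in the 4 libraries and to 1.21 to 4.18 CPM in the other 9. The 10 lymphocyte markers, of cells that use Lef1 and Tcf7, summed to 4.11 to 20.4 and 0.547 to 3.41 CPM. Within the 4 libraries these sums ranked in the same order as the receptor level. Control primary 3, KO primary 7, KO metastasis 6 and KO metastasis 7 had receptor levels of 1752, 723, 565 and 349 CPM. Their endothelial sums were 28.3, 18.8, 11.4 and 10.01 CPM, and their lymphocyte sums 20.4, 9.26, 5.90 and 4.11 CPM. How the marker and receptor reads are related was not tested. No gene of either marker list was at 0 throughout a group, and the part of these cell types in the levels of Lef1, Notum and Nkd2 was not tested. Tcf7 had 0.380, 0.542, 2.28 and 1.64 CPM in the high-receptor libraries control primary 3, KO primary 7 and KO metastasis 6 and 7, which spread over most of its range. Sums of all other marker lists overlapped between the 4 libraries and the other 9. Medians were higher in the 4 for microglia and macrophages (70.9 against 12.7 CPM) and mature oligodendrocytes (556 against 156). They were lower for astrocytes (197 against 366), fibroblasts (42.8 against 90.3), oligodendrocyte precursors (404 against 588) and granule cell precursors (3111 against 3454).

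**Figure D3:**
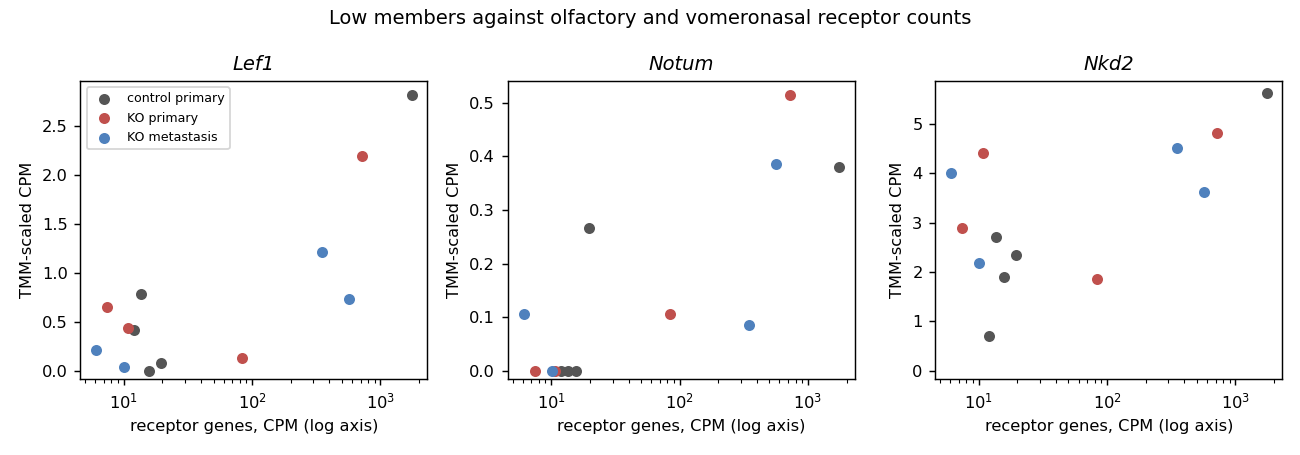
TMM-scaled CPM of Lef1, Notum and Nkd2 (vertical axes, linear) against the summed CPM of olfactory and vomeronasal receptor genes (horizontal axis, log scale), 1 point per library coloured by group. The highest value of each gene lies among the 4 libraries beyond 100 receptor CPM, which come from all 3 groups.

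Setting KO metastasis against KO primary asks whether any member differed between spinal metastases and the cerebellar tumours of the same genotype. None of the 8 tested members was called by edgeR, and none by DESeq2 or limma voom. Nkd1 had a log2 change of -0.32 (SE 0.15, 95% interval -0.64 to -0.01, edgeR adjusted p = 0.99974), and its 95% interval was the only one of the 8 that left out 0. Its groups overlapped, since KO metastasis 4 and 7 were above KO primary 7. Over all genes, edgeR called 0.00449%, a single gene (Mbp, of myelin, named after its value was seen), and 1.72% had groups that did not overlap, against 0 of the 8 members by either count. Unadjusted, 720 genes were below 0.05 in edgeR, and DESeq2 called 33.

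The interval for Axin2 was -0.29 to 0.64 around a log2 difference of 0.18, and for Znrf3 -0.47 to 0.46 around -0.00. For Rnf43 it was -0.43 to 0.80 around 0.19. Sp5 (-0.19, interval -1.999 to 1.62), Tcf7 (0.04, -1.81 to 1.90), Nkd2 (0.04, -1.05 to 1.13) and Lef1 (-0.63, -3.54 to 2.27) had wider intervals, which hold changes of 2-fold in either direction. The numbers shared by these groups do not show which metastasis belongs to which primary tumour.

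KO metastasis against control primary differs in genotype and in site together, which cannot be told apart here. It uses the same 5 controls as KO primary against control primary, so the results of these comparisons are not independent. Nkd1 and Sp5 were called, 2 of 8 members, beside 3.08% of all genes. Groups did not overlap for those and Tcf7, 3 of 8, beside 6.82% of all genes. The median log2 change of the 8 was 0.32 (6 above and 2 below 0), against -0.04 over all genes. For Nkd1 the KO primary and KO metastasis values stood at 1.17 and 0.84, and for Sp5 at -3.62 and -3.81.

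**Figure D4:**
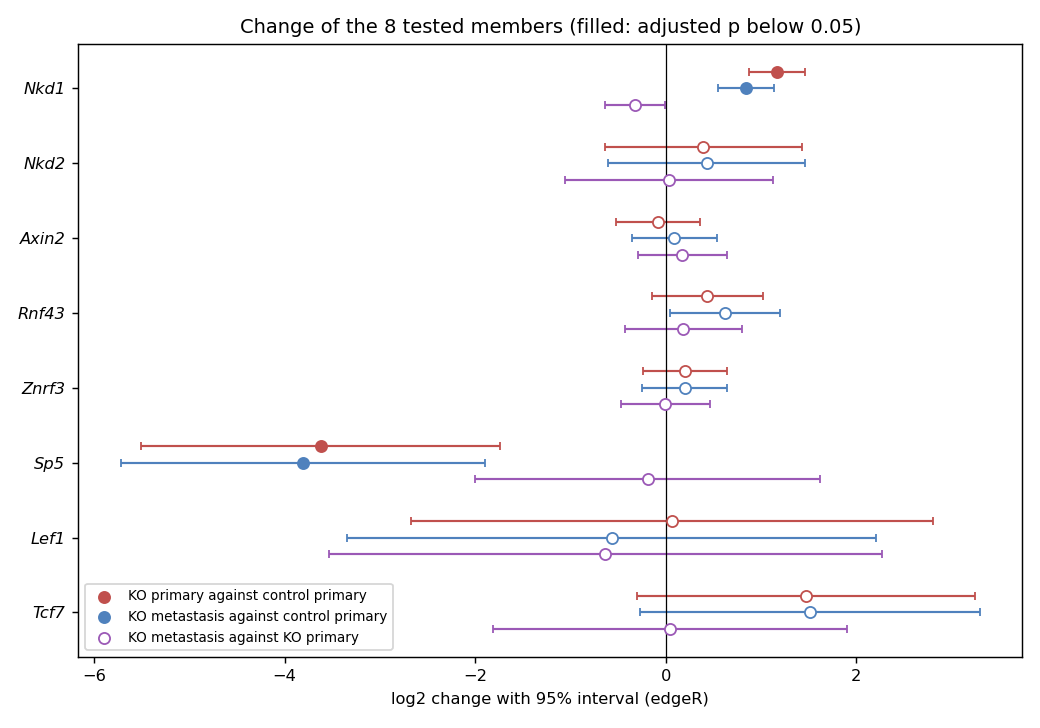
Log2 changes of the 8 tested members with 95% intervals from edgeR (horizontal axis) for the 3 comparisons, filled where the adjusted p was below 0.05. Nkd1 (1.17 and 0.84) and Sp5 (-3.62 and -3.81) are filled in both comparisons with control primary, and no symbol is filled for metastasis against primary.

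The rest of the pathway was read from 8 lists with 114 other genes, all in the table and 87 of them tested. These lists were chosen with earlier results of these data known, so their shares are descriptions only. In KO primary against control primary 5 rose and 2 fell, 8.05% of the 87, beside the 2.93% of all genes. In KO metastasis against control primary 6 rose and 4 fell, 11.5%, beside 3.08%. None of the 87 was called between metastasis and KO primary by edgeR, DESeq2 or limma voom. Without the high-receptor libraries 14 and 13 were called, and without the controls with Xist counts 2 (Wnt4 and Id2, named after their values were seen) and 0.

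Of 8 tested Wnt ligands 1 rose in KO primary. Wnt4, a ligand of several Wnt branches, had 53.5 ± 22.2 CPM (SD, n = 5) in control primary, 133 ± 25.7 (n = 4) in KO primary and 99.8 ± 30.8 (n = 4) in KO metastasis. Its log2 change was 1.31 in KO primary (SE 0.29, edgeR adjusted p = 0.0238) and 0.90 in KO metastasis (SE 0.29, edgeR adjusted p = 0.127). The first call was lost in 4 of 13 fits with 1 library left out, without control primary 4 or 7 or KO primary 3 or 6, with edgeR adjusted p of 0.0724 to 0.102. Wnt5a, the other abundant ligand, had 9.24 ± 9.27, 10.3 ± 3.31 and 8.91 ± 5.89 CPM in the same order and was not called. The list's median log2 change was -0.95 in KO primary and -0.59 in KO metastasis against control primary.

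Porcn, the enzyme that attaches the lipid to Wnt ligands, had 60.9 ± 17.9, 36.1 ± 2.23 and 30.8 ± 6.77 CPM in control primary, KO primary and KO metastasis. It fell by 0.98 on the log2 scale in KO metastasis (SE 0.21, edgeR adjusted p = 0.0210), and the KO primary value of -0.75 had an edgeR adjusted p of 0.0752. The metastasis call was lost in 7 of 13 fits, without control primary 4, 5, 6 or 7 or KO metastasis 3, 4 or 6, with edgeR adjusted p of 0.0516 to 0.121. It was also lost with the replicate number as a block (-0.92, edgeR adjusted p = 0.0523) and without the 3 controls with Xist counts (-1.01, edgeR adjusted p = 0.364). Porcn lies on chromosome X, and the part of sex in its level was not tested. Wls, the carrier of Wnt ligands to the surface, had 70.5 ± 19.9, 104.6 ± 30.1 and 109 ± 34.3 CPM and was not called.

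None of 16 receptors and co-receptors was called in KO primary, and Fzd2 alone fell in KO metastasis. Fzd2 had 99.3 ± 21.5, 71.5 ± 3.596 and 58.0 ± 3.36 CPM, with no overlap between metastases and controls, and differed by -0.78 on the log2 scale (SE 0.15, edgeR adjusted p = 0.0119). That call was lost without KO metastasis 6 (-0.77, edgeR adjusted p = 0.0562) and with the replicate number as a block (-0.68, edgeR adjusted p = 0.0554). Without the 3 controls with Xist counts the Fzd2 difference shrank to -0.38 (edgeR adjusted p = 0.719). Fzd3 and Ryk, the most abundant of the list by CPM, had log2 differences of -0.34 and 0.20 in KO primary and were not called. Of the R-spondin list, 4 of 7 genes were tested and none was called. Its receptor Lgr5, a Wnt target in other tissues, had 21.4 ± 5.92, 13.3 ± 2.63 and 10.8 ± 3.73 CPM (log2 -0.68 and -0.98, edgeR adjusted p = 0.254 and 0.0748), and Lgr4 had 16.9 ± 4.56, 13.7 ± 5.83 and 11.5 ± 4.36 CPM.

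In the list of Dishevelled and the destruction complex 1 of 15 genes fell. Apc2, the neural relative of APC, had 122 ± 44.2, 39.9 ± 17.2 and 34.6 ± 9.90 CPM and fell by 1.61 (SE 0.35, edgeR adjusted p = 0.0214) and 1.82 (SE 0.35, edgeR adjusted p = 0.0115) on the log2 scale. The KO primary call was lost without control primary 4 or KO primary 3, 4 or 6 (edgeR adjusted p = 0.0564 to 0.103). The kinase gene Csnk1a1 and the tankyrase gene Tnks2, the list's most abundant by CPM, had changes of 0.24 and 0.01 in KO primary and were not called.

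Among beta-catenin and its nuclear partners 1 of 15 rose and 1 fell in each comparison with control primary. Tcf7l1, the TCF that mostly represses, had 5.41 ± 2.94, 17.6 ± 5.34 and 16.9 ± 5.39 CPM, with no overlap between either knockout group and the controls. Log2 changes of 1.70 (SE 0.39, edgeR adjusted p = 0.0302) and 1.64 (SE 0.39, edgeR adjusted p = 0.0345) were found. The first was lost in 7 of 13 fits, without control primary 4 or 7, KO primary 3, 4 or 6, or KO metastasis 3 or 6 (edgeR adjusted p = 0.0543 to 0.116). The metastasis call was lost in 8 of 13, without control primary 4, 6 or 7, KO primary 4 or 6, or KO metastasis 3, 4 or 6 (edgeR adjusted p = 0.0525 to 0.131), and in the fit of only these groups (1.64, edgeR adjusted p = 0.0522).

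Tle2, a Groucho co-repressor that TCF factors recruit, had 32.8 ± 8.13, 8.21 ± 3.85 and 10.3 ± 3.41 CPM. It fell by 1.999 (SE 0.32, edgeR adjusted p = 0.00414) and 1.67 (SE 0.32, edgeR adjusted p = 0.0115) on the log2 scale and kept both calls with any 1 library left out. The beta-catenin gene Ctnnb1 had 381 ± 97.9, 524 ± 89.8 and 414 ± 146 CPM and was not called (0.46 and 0.12, edgeR adjusted p = 0.488 and 0.956). Ctbp1, another co-repressor gene, had changes of 0.27 and 0.11 and was not called.

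None of 13 tested secreted and membrane inhibitors was called in KO primary and 1 rose in KO metastasis. Sfrp2, a secreted Frizzled-related protein gene, had 99.0 ± 32.4, 237 ± 82.9 and 275 ± 133 CPM, with log2 changes of 1.26 (SE 0.33, edgeR adjusted p = 0.0633) and 1.48 (SE 0.34, edgeR adjusted p = 0.0287). The metastasis call was lost without control primary 4 or 7 or KO metastasis 4 (edgeR adjusted p = 0.0509 to 0.109). The abundant Sfrp1 had 1378 ± 225, 1810 ± 185 and 1584 ± 225 CPM and was not called. Draxin had 381 ± 159, 758 ± 351 and 820 ± 304 CPM and was not called.

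Of 14 tested other reported Wnt targets, 3 rose in KO primary and 4 in KO metastasis, and none fell. Id2, an inhibitor of helix-loop-helix factors, had 151 ± 27.8, 445 ± 121 and 442 ± 70.1 CPM, with log2 changes of 1.56 (SE 0.19, edgeR adjusted p = 7.13e-04) and 1.55 (SE 0.19, edgeR adjusted p = 7.69e-04). Sox9, a factor of progenitors and glia, had 287 ± 39.8, 620 ± 125 and 512 ± 127 CPM (1.11 and 0.83, edgeR adjusted p = 0.00445 and 0.0236). Ccnd1, the cyclin D1 gene and also a Sonic Hedgehog target, had 338 ± 28.01, 544 ± 67.6 and 535 ± 73.2 CPM (0.69 and 0.66, edgeR adjusted p = 0.00783 and 0.00976). Jun, an AP-1 factor gene, had 418 ± 110, 627 ± 156 and 798 ± 102 CPM and was called in KO metastasis (0.93, SE 0.21, edgeR adjusted p = 0.0272).

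Id2 kept both calls with any 1 library left out, and Sox9 and Ccnd1 kept theirs in KO primary. In KO metastasis Sox9 lost its call without control primary 4, 5 or 7 or KO metastasis 4 or 6 (edgeR adjusted p = 0.0520 to 0.0881), and with the replicate number as a block (0.81, edgeR adjusted p = 0.0900). Ccnd1 lost it without KO metastasis 3 (0.57, edgeR adjusted p = 0.0517). Jun lost it without control primary 4 or 6 or KO metastasis 3, 4 or 6 (edgeR adjusted p = 0.0685 to 0.0907). Tcf4, the most abundant of the list by CPM, had 1143 ± 223, 1489 ± 100.1 and 1566 ± 133 CPM and was not called. Tcf4 lies on chromosome 18 and is not Tcf7l2, of the list of beta-catenin partners, on chromosome 19. Many genes of this list answer to other pathways too.

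**Figure D5:**
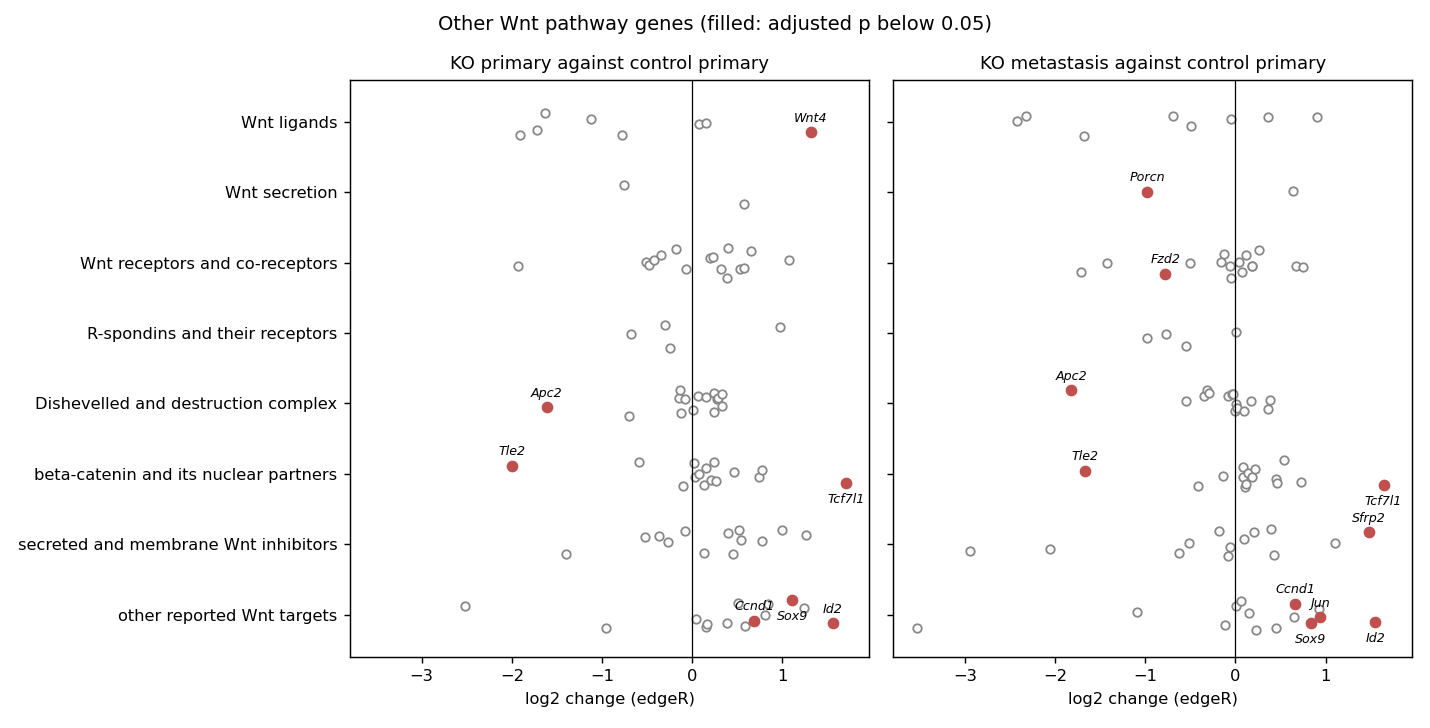
Log2 changes (horizontal axes, edgeR) of the tested genes of the 8 other Wnt pathway lists, 1 open or filled point per gene, for both knockout groups against control primary. Filled points (adjusted p below 0.05) carry their names, 7 in KO primary and 10 in KO metastasis, and none of the named genes changes sides between the panels. Both panels use the same control libraries, so they are not independent.

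The genes whose levels followed each tested member most closely over the 13 libraries were found by Pearson's r of log2(CPM + 0.5) among 10093 candidates with a mean of at least 5 CPM. These values are descriptions over libraries that share groups and depth. For Nkd1 they were Snx11 (r = 0.96) and Acsf3 (r = 0.95). Snx11 had 48.3 ± 18.4, 228 ± 18.0 and 177 ± 30.6 CPM in control primary, KO primary and KO metastasis, and Acsf3 had 41.8 ± 14.97, 275 ± 80.7 and 147 ± 54.2. For Sp5 they were Rapgef4 and Dlg4 (r = 0.93 for each), the second a postsynaptic scaffold gene of neurons. Rapgef4 had 10.7 ± 4.02, 2.98 ± 0.913 and 1.77 ± 1.35 CPM and Dlg4 had 34.1 ± 6.29, 10.1 ± 2.64 and 9.66 ± 2.12.

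Rnf43 was followed by Dsel (r = 0.95) and Pars2 (r = 0.88), and Znrf3 by Plod3 (r = 0.88) and the Wnt co-receptor gene Lrp5 (r = 0.86). Axin2 was followed by Mab21l2 (r = 0.83) and Gpatch11 (r = 0.82), Nkd2 by Bend4 (r = 0.85) and Lhpp (r = 0.84), and Tcf7 by Ppm1m (r = 0.88) and Carnmt1 (r = 0.86). For Lef1 the closest were Tenm4 (r = 0.82) and the pseudogene Fau-ps2 (r = 0.80). Fau-ps2 had 7.52 ± 16.3, 5.17 ± 9.58 and 4.66 ± 5.93 CPM in control primary, KO primary and KO metastasis. Each SD was above its mean, so its level differed widely between libraries of a group. Reads of a pseudogene and its parent may be exchanged, so the Fau-ps2 level is uncertain.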

How the data were processed

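The deposited file is a table of raw gene counts, with 1 column per library and none without a sample. GFP+ cells sorted after papain digestion were frozen as pellets of 1 to 5 M cells (primary) or 0.1 to 3 M cells (metastasis) and prepared by a TruSeq RNA kit, per the labels' protocols. The build mm10 and the tools DESeq2, HTSeq 0.6.1 and STAR 2.4 are named, without roles, in the submitters' processing notes. No source used here gives the annotation, the strand setting or trimming. No molecular identifiers are named, so counting limits cover counting error only.

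All 13 libraries were fitted with edgeR 4.0.16 (R 4.3.3) as 3 groups with TMM scaling, filterByExpr (minimum count 10, minimum total 15) and quasi-likelihood F tests, and p-values were adjusted over 22265 genes by Benjamini-Hochberg. The 95% intervals come from the fitted log2 change, a standard error (SE) and the degrees of freedom. That SE was derived from the test, as the absolute log2 change over the square root of its F statistic. The code was tested on simulated data. Alternatives were DESeq2 1.42.0, limma 3.58.1 voom with quality weights, other size factors, no count filter, only the groups compared, a replicate block and fits without particular libraries.

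Text names all 9 members, Kmt2d, every called gene of the 8 other Wnt lists, the 2 of highest mean CPM in each list, and for each tested member the 2 genes of highest correlation. The members, lists and alternatives were chosen with earlier results of these data known. Positions and exon lengths are from GENCODE M21 (GRCm38), promoter sequences from RefSeq (GRCm38.p6), and coordinates are 1-based.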

Additional observations from a re-analysis of the deposited data

Results flagged for a closer look

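The 27 sets of values of 1 member in 1 group were each examined for a library far from the rest, and 2 held one. Chance alone sets off this check in about 1 of 20 sets. Sp5 in control primary 5 had 23.6 CPM, where the other 4 controls had 2.93 to 6.86 CPM. Lef1 in control primary 3 had 2.81 CPM, where the other 4 had 0 to 0.780 CPM. Control primary 3 is also the library with the highest receptor level, 1752 CPM.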

How the results depend on the processing

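Among the alternatives, Nkd1 and Sp5 kept their direction against control primary in every fit. The members called were 2 in each comparison with control primary, and 1 with the replicate number as a block, where Sp5 was lost (KO primary -2.70, edgeR adjusted p = 0.154; metastasis -3.06, 0.0950). They were 0 and 0 without the controls with Xist counts, a fit with fewer samples, and 1 to 2 with 1 library left out. Without the high-receptor libraries they were 2 in KO primary and 3 in metastasis against control primary, with Rnf43 added. Replicate numbers are shared by the groups, but no label says that they mark the same mouse. Deviations of same-numbered KO primary and KO metastasis libraries correlated at 0.03, 0.22, 0.31 and 0.58 for replicates 3, 4, 6 and 7 over 11173 genes. Of these, 3 of 4 matched their own number best. Control libraries, which have another genotype, matched their own number best for replicate 7 in KO primary (0.21). In KO metastasis they did so for replicates 3 and 4 (0.29 and 0.20). The replicate 7 libraries of both knockout groups are high-receptor libraries. Own-number matches thus neither show pairing nor speak against it. No label gives pairing either, so the block stayed an alternative. It changed no other call of a member.

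Of all genes in KO primary against control primary, 653 were called, and DESeq2 called 1648, limma voom 3267, edgeR without the high-receptor libraries 1427 and without the Xist controls 138, with 277 to 1032 when 1 library was left out. For metastasis against control primary 685 were called, and in the same order 1671, 3822, 1274 and 100, with 369 to 1199. For metastasis against KO primary 1 was called, DESeq2 called 33, voom 2, edgeR without a count filter 2, with only these groups 0, with the replicate block 0, with that block in knockout libraries only 10, without the high-receptor libraries 5, without the Xist controls 0, and with 1 library left out 0 to 2. Of the other Wnt genes, 7 in KO primary became 14 (DESeq2), 25 (voom), 14 (no high-receptor libraries), 2 (no Xist controls) and 4 to 12 (1 library left out). In metastasis 10 became 18 (DESeq2), 22 (voom), 0 (no Xist controls) and 5 to 13 (1 library left out). The cause of these shifts was not tested.

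Changes of sign were found only for members that were not called in that comparison. For KO primary against control primary, Lef1 took -0.0082 (DESeq2 size factors in edgeR), -0.0090 (DESeq2), -0.17 (replicate block), -0.82 (no Xist controls) and -0.94 to 1.40 (1 library left out), and Axin2 -0.19 to 0.075 (1 library left out). For metastasis against control primary, Axin2 took -0.0027 (voom) and -0.077 (no Xist controls), and Lef1 2.59 (voom) and -1.30 to 0.77 (1 library left out). For metastasis against KO primary, voom gave Sp5 0.67, Lef1 0.90, Rnf43 -0.19 and Znrf3 0.16. Lef1 took 0.015 with the replicate block and Tcf7 -0.57 without the high-receptor libraries. Znrf3 also took 0.028 (other size factors), 0.028 (DESeq2), 0.0089 (no filter), 0.045 (only these groups), 0.046 (replicate block in knockout libraries) and 0.030 (no Xist controls). With 1 library left out the ranges were Nkd2 -0.17 to 0.27, Sp5 -0.73 to 0.31, Lef1 -1.37 to 0.43, Tcf7 -0.23 to 0.34, Rnf43 -0.0031 to 0.45 and Znrf3 -0.10 to 0.14. The cause was not tested. Lef1, Notum and Tcf7 had at most 92 counts in a library, and the part of depth in their values was not tested.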
